A study of Dascyllus aruanus with 17 samples.

Results

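The vasotocin and isotocin system is the fish counterpart of the vasopressin and oxytocin system of mammals: small peptide hormones and the membrane receptors that bind them. It was followed here in *Dascyllus aruanus*, a damselfish of coral reefs, in RNA of the whole brain with and without artificial light at night (ALAN). Its members were all assembled genes whose deposited best-match gene name was AVP, OXT, AVPR1A, AVPR2 or OXTR, with an added A or B allowed. Fish vasotocin and isotocin genes carry the orthologue names AVP and OXT in such annotations. This rule found 14 of 79921 annotated genes. Of these, 5 were among the 21805 genes of the deposited count table: 1 named AVP, 1 named AVPR1A, 1 named AVPR2 and 2 named OXTR. No gene was named OXT. All 5 counted members passed the filter on low counts, which kept 20782 genes.

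The animals were wild fish of 6 colonies, habituated for 96 h and then held for 72 h, or 3 nights. Controls had a natural light-dark cycle, and ALAN fish had dim white light through the dark hours. Brains were taken at ZT11 (zeitgeber time in hours, 1 h before sunset) for the day groups or at ZT23 (1 h before sunrise) for the night groups, and each library held 1 whole brain. Control day and ALAN day had 3 libraries each (control day numbered 1, 2 and 4), and control night and ALAN night had 4 each. All 4 groups were thus wild, habituated fish of the same species, and neither age nor sex is given in the sources used here. Light was applied to whole colonies and the colony of each fish is not in the labels, so colony and treatment cannot be told apart. The tests treat each fish as independent. Their p-values set differences of group means against the spread between these brains, and they do not cover spread between colonies.

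In teleosts, vasotocin and isotocin are made mainly by neurons of the preoptic area, many of which send axons to the neurohypophysis, while others project within the brain. Both peptides are cut from larger precursors that also hold a neurophysin, and they are known for roles in water and salt balance, stress responses and social behaviour. V1a-type receptors and the oxytocin-type receptor couple mainly to the Gq pathway of phospholipase C and inositol trisphosphate, and V2-type receptors of mammals to the Gs pathway of cyclic AMP.

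The strength of the deposited match to the name differed between members. Match lengths were not used, so it does not rank how closely unlike genes match their names. The AVP gene (assembly component DN41268) had a deposited bit score, a measure of match strength, of 168, and the annotated domains were the hormone and the neurophysin domain of the family. The deposited annotation describes it only as a member of the vasopressin and oxytocin family, so it does not settle whether the gene encodes vasotocin or isotocin. It is called AVP here, as annotated. The AVPR1A gene (DN57764) had a bit score of 780, and the OXTR genes had 768 (DN20583) and 761 (DN15636). The AVPR2 gene (DN23476) had a bit score of 241, lower than that of another gene named AVPR2 that has no row in the count table (DN81748, 442). The other 9 annotated members, 3 named AVPR1A and 6 named AVPR2, had bit scores of 50.4 to 442 and no row in the count table, and they were not analysed here.

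The 14 libraries held 14942952 to 23051193 expected counts each, and libraries of a group correlated at r = 0.918 to 0.949 over log2 values of all tested genes. Levels are given as CPM, that is counts scaled to the same corrected total in every library. Transcript lengths were not used, so levels are compared between groups for 1 gene and never between genes. The summed markers of neurons (10 genes, 1214 to 1779 CPM), astroglia and radial glia (3 genes, 3318 to 6861 CPM) and oligodendrocytes (2 genes, 1159 to 1718 CPM) were present in every library, as the brain label implies. Of the single neuron markers, 1 GAD1 gene and 1 SYT1 gene were each at 0 in 1 library. Markers of the pituitary, which can stay attached to a dissected fish brain, differed widely: their 7 genes summed to 64.3 to 104 CPM in control day, 76.7 to 1357 in ALAN day, 71.7 to 484 in control night and 62.4 to 1412 in ALAN night. In these sums 1 POMC gene (DN31933) alone had 45.0 to 92.6 CPM across the libraries, while GH1, the growth hormone gene, ran from 0.355 to 1209 CPM. The pituitary marker LHB was at 0 in 4 libraries and 1 PRL gene was at 0 in 1. In whole-brain RNA, fewer cells of a type and less RNA per cell cannot be told apart.

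The hormone precursor gene AVP differed about 10.1-fold between the lowest and the highest brain, and most of that range lay inside groups. In control day brains its levels were 763, 425 and 711 CPM for libraries 1, 2 and 4. In ALAN day brains they were 331, 958 and 520 CPM. The highest brain of the series was thus an ALAN day brain, and the ALAN day values enclosed all 3 control day values. In control night brains AVP was at 524, 692, 370 and 158 CPM for libraries 1 to 4. In ALAN night brains it was at 426, 365, 522 and 94.5 CPM. The lowest brain of each night group was the library numbered 4, and every pair of groups overlapped. The means were 633 ± 182 CPM (SD, n = 3) in control day, 603 ± 322 (SD, n = 3) in ALAN day, 436 ± 227 (SD, n = 4) in control night and 352 ± 183 (SD, n = 4) in ALAN night. The order from control day down to ALAN night held for the means and for the medians (711, 520, 447 and 395 CPM). It did not hold for single brains, and no neighbouring groups differed beyond their spread.

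**Figure D1:**
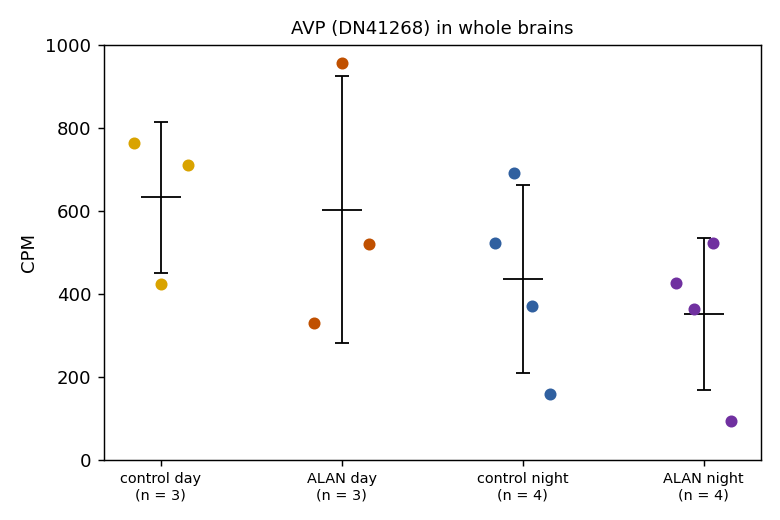
AVP level in each whole brain, in CPM on a linear axis from 0, for the 4 groups; points are single libraries, the long bar is the group mean and the whiskers are 1 SD. Values run from 94.5 to 958 CPM, the groups overlap, and the lowest point of each night group lies well below the other night brains.

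The night against day comparison asked whether AVP changed with time of day. Its night level was 0.634 times its day level over both treatments (95% interval 0.36 to 1.12, log2 difference -0.66, SE 0.38), and the difference did not pass edgeR's quasi-likelihood test (unadjusted p = 0.106, adjusted p = 0.407 over all 20782 genes). In controls alone the ratio was 0.688 (0.309 to 1.53, adjusted p = 0.714), and under ALAN it was 0.584 (0.262 to 1.30, adjusted p = 0.662). Each interval holds a large decrease, equal levels and a modest increase. Without both night libraries numbered 4, left out as a check added after seeing the data, the log2 difference over both treatments was -0.36 instead of -0.66, and its unadjusted p in edgeR's test was 0.181. Leaving out 1 library at a time gave -0.82 to -0.40 over both treatments, -0.87 to -0.26 in controls and -1.07 to -0.27 under ALAN, the values nearest 0 being those without ALAN day library 2, control night library 4 and ALAN day library 2. None of these passed adjustment. AVP did not pass the test for light either. The ALAN to control ratio was 0.807 at night (0.383 to 1.70, adjusted p = 0.9999) and 0.952 by day (0.403 to 2.25, adjusted p = 0.991). The interaction of light and time gave a log2 difference of -0.24 (-1.88 to 1.41, adjusted p = 0.981).

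The spread of AVP between brains of the same group was large for a gene of its level. The within-group SD of its log2 CPM was 0.89, against a median of 0.383 over all tested genes. That SD stood at the 99.6th percentile of the 500 genes nearest to AVP in mean level, and at the 84.4th percentile of all tested genes. With 1865 to 16788 expected counts per library, AVP was deeply counted.

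Of the receptors, the V1a-type gene AVPR1A (DN57764), a Gq-coupled receptor in vertebrates, was lower on average under ALAN at both times, but its groups overlapped. Control day brains had 3.30, 1.30 and 4.80 CPM (mean 3.13 ± 1.75, SD, n = 3), and ALAN day brains had 3.06, 0.970 and 1.71 CPM (1.91 ± 1.06, SD, n = 3). Control night brains had 2.02, 2.40, 3.08 and 3.29 CPM (2.70 ± 0.590, SD, n = 4), and ALAN night brains had 2.26, 2.15, 2.56 and 1.77 CPM (2.19 ± 0.323, SD, n = 4). The highest brain of the series, and the one next above its lowest, were both control day brains, and the night groups spread less than the day groups. The ALAN to control ratio over both times was 0.705 (95% interval 0.438 to 1.13, log2 difference -0.51, SE 0.32), with unadjusted p = 0.136 and adjusted p = 0.983 in edgeR's test. By day it was 0.614 (0.299 to 1.26, adjusted p = 0.864) and at night 0.809 (0.436 to 1.502, adjusted p = 0.9999). Without control day library 2, the lowest of its group, the log2 difference by day was -1.07 instead of -0.70 (edgeR unadjusted p = 0.0329, adjusted p = 0.46). Without control day library 4, the highest of its group, it was -0.25, and leaving out each of the 14 libraries in turn gave -1.21 (without ALAN day library 1) to -0.25. Night and day levels over both treatments had a ratio of 0.992 (0.616 to 1.60, adjusted p = 0.993).

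Markers of skeletal muscle, a list added after seeing which genes were most like AVPR1A, moved with it in the control day group. The list was chosen from these same libraries, so the likeness of these markers to AVPR1A is no separate evidence. The summed level of their 11 genes was 1150 and 996 CPM in control day libraries 1 and 4, the ones with 3.30 and 4.80 CPM of AVPR1A. In control day library 2, with 1.30 CPM of AVPR1A, that sum was 311 CPM. The other 11 libraries had 320 to 515 CPM. In ALAN day the order of the sums was reversed, with 346, 510 and 442 CPM beside 3.06, 0.970 and 1.71 CPM of AVPR1A. The mean log2 CPM of the same 11 genes, at 2.317, 2.096 and 2.229, had the order of AVPR1A in ALAN day. In control day that mean was 3.916, 1.779 and 4.39 for libraries 1, 2 and 4, also in the order of AVPR1A. In the night groups the order was neither the same nor reversed by either measure. Much of the sum was PVALB, the parvalbumin gene, which alone had 231 to 427 CPM across the libraries. Whole-brain RNA does not tell which cells its RNA came from. The sums, and their order in ALAN day, therefore cannot be read as a level of muscle RNA alone. Among the listed genes 1 MYH1 gene was at 0 in 6 libraries while CASQ1 and TNNC2 were at 0 in 1 library each. The part of the muscle markers in the AVPR1A values was not tested. In the same list 2 MYBPC2 genes, which encode a myosin-binding protein of fast muscle, fell at night over both treatments, 2 of 11 beside 2.11% of all tested genes (DN15662 log2 difference -0.96, adjusted p = 0.00553; DN30293 -0.91, adjusted p = 0.0236, in edgeR's test). The DN30293 call was lost in 5 of 20 alternative settings, 3 of them leaving out 1 library.

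The V2-type gene AVPR2 (DN23476), named after the receptor that in mammals controls water retention in the kidney, was counted in small numbers, 12.6 to 27.3 expected counts per library. Control day brains had 1.43, 1.03 and 0.994 CPM (mean 1.15 ± 0.244, SD, n = 3), and ALAN day brains had 1.08, 1.14 and 1.25 CPM (1.16 ± 0.0823, SD, n = 3). Control night brains had 0.866, 1.00, 1.03 and 0.599 CPM (0.873 ± 0.196, SD, n = 4), and ALAN night brains had 0.699, 1.24, 0.710 and 0.861 CPM (0.877 ± 0.251, SD, n = 4). The day means were close to each other, as were the night means, and day and night values overlapped. Night against day over both treatments gave a ratio of 0.759 (95% interval 0.495 to 1.16, unadjusted p = 0.188, adjusted p = 0.53 in edgeR's test). ALAN against control over both times gave 1.01 (0.655 to 1.54, adjusted p = 1). True ratios anywhere inside those intervals are compatible with these values.

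The OXTR genes are the annotated receptors for the oxytocin-type peptide, which is isotocin in fish. They differed from each other in spread and in counts, at 104 to 250 expected counts per library for DN15636 and 1.81 to 50.7 for DN20583. OXTR DN15636 had the smallest within-group SD of log2 CPM of the members, 0.183. It stood at 7.46, 7.82 and 8.54 CPM in control day (mean 7.94 ± 0.550, SD, n = 3) and at 10.01, 8.79 and 7.90 CPM in ALAN day (8.90 ± 1.06, SD, n = 3). In control night it stood at 8.90, 8.06, 11.7 and 8.25 CPM (9.22 ± 1.67, SD, n = 4), and in ALAN night at 8.71, 6.87, 8.80 and 8.21 CPM (8.15 ± 0.893, SD, n = 4). Its values spanned 1.7-fold over the 14 brains, and all groups overlapped. Its intervals were the narrowest of the members: night against day over both treatments had a ratio of 1.03 (0.854 to 1.24, adjusted p = 0.912) and ALAN against control over both times 0.995 (0.824 to 1.20, adjusted p = 1). An averaged light effect beyond those bounds, in either direction, lay outside its interval.

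OXTR DN20583 varied most, with a within-group SD of log2 CPM of 0.929. That SD stood at the 63.2nd percentile of the 500 genes nearest to it in mean level. Against their own nearest 500 genes, OXTR DN15636 stood at the 6.8th percentile and AVPR2 at the 1.6th. Control day brains had 1.22, 0.652 and 0.877 CPM (mean 0.916 ± 0.286, SD, n = 3), and ALAN day brains had 1.23, 0.114 and 2.65 CPM (1.33 ± 1.27, SD, n = 3). Control night brains had 2.14, 1.35, 1.21 and 1.75 CPM (1.61 ± 0.418, SD, n = 4), and ALAN night brains had 1.13, 1.78, 1.47 and 0.709 CPM (1.27 ± 0.461, SD, n = 4). The lowest and the highest brain, 23.2-fold apart, were both ALAN day brains, and the lowest, library 2, held only 1.81 expected counts. In controls, night values lay almost wholly above day values, with a ratio of 1.76 (95% interval 0.624 to 4.98, unadjusted p = 0.261, adjusted p = 0.652 in edgeR's test). ALAN against control had a ratio of 1.46 by day (0.488 to 4.37, adjusted p = 0.945) and 0.791 at night (0.312 to 2.01, adjusted p = 0.9999). ALAN day library 2, the lowest here, also had the lowest AVPR1A and the highest AVP of the series, and its pituitary markers summed to 1357 CPM. ALAN night library 2 had the highest such sum of the series, 1412 CPM. Its levels were 365 CPM for AVP, 2.15 for AVPR1A and 1.78 for OXTR DN20583. ALAN day library 1, with a sum of 845 CPM, had 331 CPM of AVP, 3.06 of AVPR1A and 1.23 of OXTR DN20583. The part of the pituitary markers in these values was not tested.

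**Figure D2:**
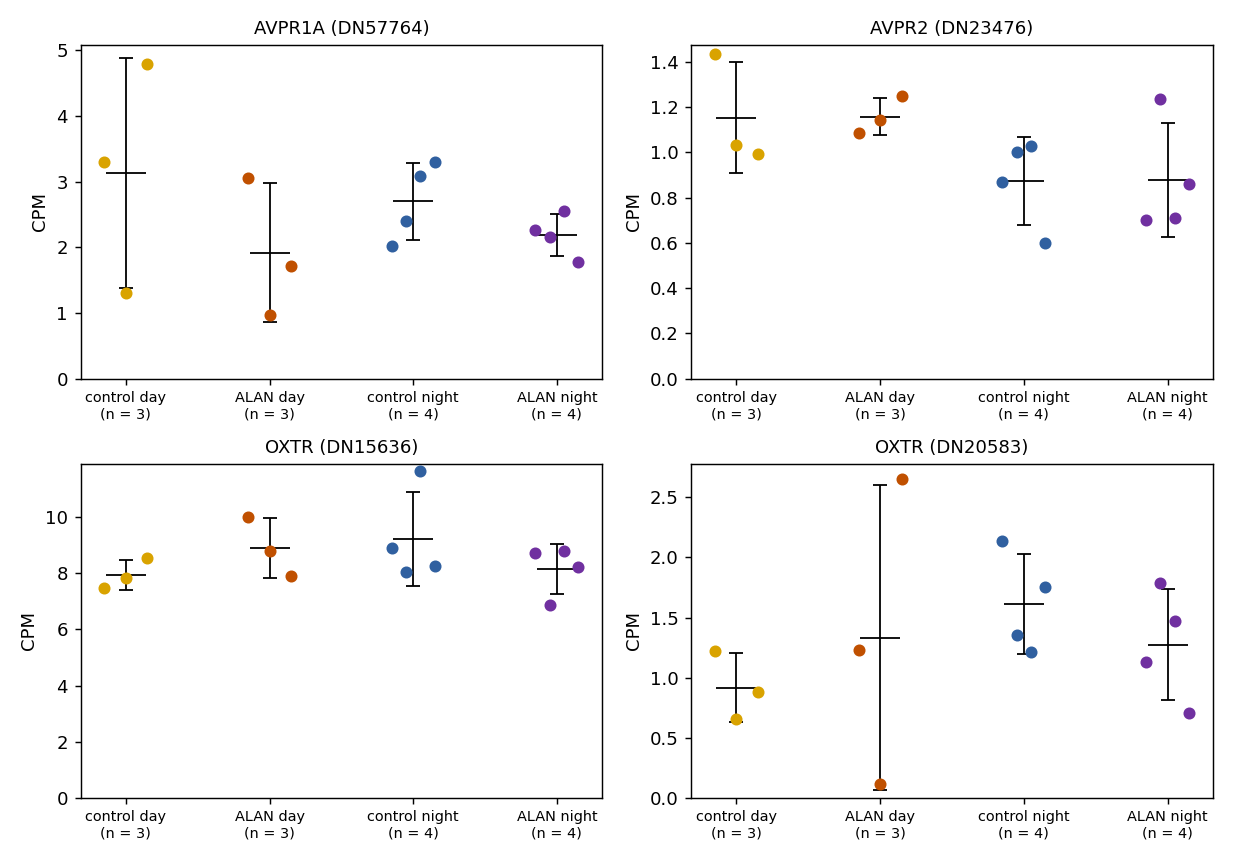
Levels of the 4 receptor genes in each whole brain, in CPM, one panel per gene with its own linear axis from 0; points are single libraries, the long bar is the group mean and the whiskers are 1 SD. OXTR DN15636 spans 1.7-fold over the 14 brains and OXTR DN20583 23.2-fold, and in every panel the groups overlap.

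None of the 5 members passed the test in any comparison, at an adjusted p under 0.05 or at an unadjusted p under 0.05. The share of all tested genes that passed was also small for light. For ALAN against control it was 0.0289% at night, 0.00481% by day and 0.00481% over both times, and for the interaction it was 0%. For night against day it was 2.07% in controls, 1.03% under ALAN and 4.34% over both treatments. With 5 members, a count of 0 lies near each of these shares and sets the members apart from no other genes. At an unadjusted p under 0.05 the shares of all genes were 14.6%, 11.1% and 17.7% for those time comparisons and 4.61%, 6.92% and 5.71% for light at night, by day and over both times, and 6.15% for the interaction. No member had groups that did not overlap, against 13.4% of all genes for night and day in controls, 11.4% under ALAN, 2.5% for light at night and 10.7% for light by day. Smaller groups separate more often without any effect. Light by day set 3 libraries against 3 and light at night 4 against 4, so these shares cannot be compared with each other. The members' median log2 difference for time over both treatments was -0.01, beside 0.01 over all tested genes. DESeq2 called none of the members either.

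**Figure D3:**
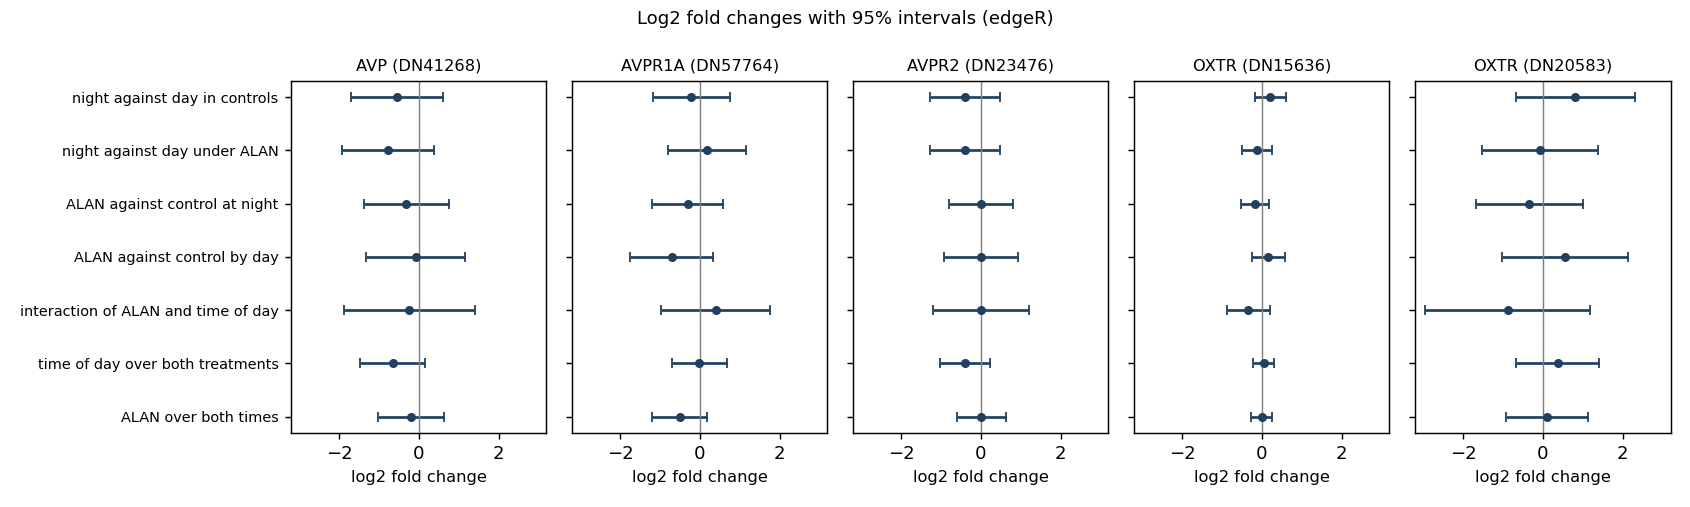
Log2 differences of the 5 members in the 7 comparisons from edgeR's fit, with 95% intervals; the vertical line marks no difference. Every interval crosses that line, and the intervals are narrowest for OXTR DN15636 and widest for OXTR DN20583.

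Since no OXT gene was found, AVP could not be set against it. Instead, AVP was set against the 14 counted genes of the preoptic lists below, a family of relations chosen after seeing the data. By Pearson's r over all 14 libraries the closest was with GAL, the precursor of galanin, a peptide of preoptic and hypothalamic neurons. GAL levels were 47.3, 28.1 and 33.5 CPM in control day, 32.5, 30.3 and 34.8 in ALAN day, 32.3, 35.6, 26.6 and 19.5 in control night, and 24.3, 34.9, 31.1 and 13.9 in ALAN night. The brains with the lowest AVP, both numbered 4 in the night groups, also had the lowest GAL. Over the 14 libraries Pearson's r was 0.849 (permutation p = 0.00054, Benjamini-Hochberg adjusted 0.00756 over the 14 relations), while Spearman's rho was 0.543 (permutation p = 0.0463, adjusted 0.216). Without the 2 libraries farthest from the median of AVP, which were those lowest brains, r was 0.432, so the relation rests on them. Within the times of sampling r was 0.314 over the 6 day brains and 0.927 over the 8 night brains, which hold those same lowest brains.

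The other peptides differed in how low these brains ranked. Of 14 libraries ranked from the lowest, control night 4 and ALAN night 4 ranked 4 and 1 for PDYN, the precursor of dynorphin, 6 and 4 for TRH, the precursor of thyrotropin-releasing hormone, and 3 and 7 for CRH, the precursor of corticotropin-releasing hormone. They ranked 1 and 3 for NTS, the precursor of neurotensin, and 1 and 6 for UCN, the precursor of urocortin. For the genes named CCK, the precursor of cholecystokinin, they ranked 2 and 4 (DN7285) and 3 and 6 (DN6510). For OTP, a transcription factor that specifies these neurons in zebrafish and mouse, the ranks were 10 and 1. PDYN had r = 0.687 with AVP (permutation p = 0.00898, adjusted 0.0629) and 0.298 without the same 2 libraries. NTS had r = 0.559 (permutation p = 0.0363, adjusted 0.127) and 0.18 without them. DBX1, a transcription factor of the developing hypothalamus, ran the other way with r = -0.59 (permutation p = 0.0249, adjusted 0.116) and rho = -0.736 (permutation p = 0.00363, adjusted 0.0508). Without the 2 libraries its r was -0.735, and it was -0.87 over the day brains and -0.605 over the night brains. CCK DN6510 had r = 0.448 (permutation p = 0.107, adjusted 0.251) and rho = 0.574 (permutation p = 0.0348, adjusted 0.216). By the size of rho, DBX1 and CCK DN6510 were closer to AVP than GAL was. Without the 2 libraries DBX1, CCK DN6510 (r = 0.459) and FEZF2 of the same lists (r = -0.445) were closer than GAL by the size of r. Of the 14 relations, that with GAL passed adjustment for r, and none passed for rho.

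**Figure D4:**
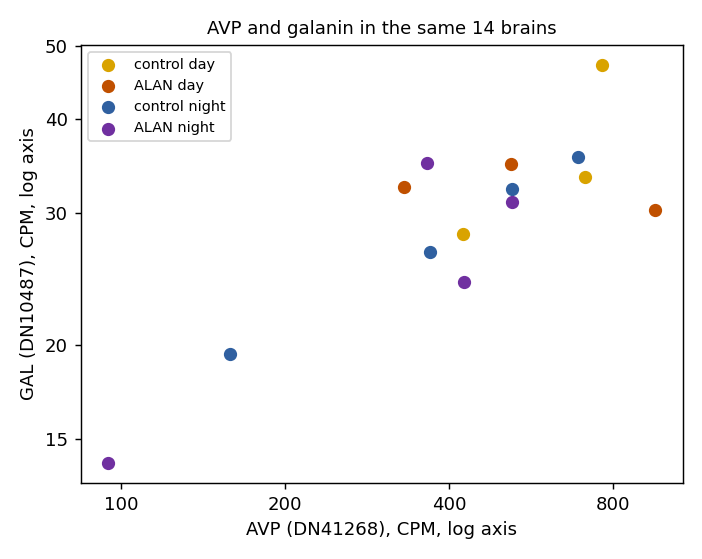
AVP level (CPM, log axis) against GAL level (CPM, log axis) in the 14 whole brains, coloured by group; each point is 1 library. The brains with the lowest AVP, 94.5 and 158 CPM, are also lowest in GAL at 13.9 and 19.5 CPM, and the other 12 form a loose cloud.

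Over the 14 libraries and 17587 other named genes, the genes whose log2 levels were most like those of each member are given as a description; all share library and depth. For AVP they were NLGN3 (r = 0.908), a neuronal adhesion protein of synapses, NDUFS5 (0.896), a subunit of respiratory complex I, and SNX12 (0.895), a sorting nexin. For AVPR1A they were LOXL3 (0.867), a lysyl oxidase of connective tissue, MYOZ3 (0.832), a protein of the muscle Z-disc, and PDLIM7 (0.829), a PDZ and LIM domain protein. For AVPR2 they were MYC (0.838), a transcription factor, NMB (0.831), the precursor of neuromedin B, and RHOF (0.824), a small GTPase. For OXTR DN20583 they included SRRD (0.855) and KIT (0.831), a receptor tyrosine kinase. OXTR DN15636 was most like MCIDAS (0.833), a regulator of multiciliated cells, SETD8 (0.799), a histone methyltransferase, and RIPK3 (0.77), a kinase of necroptosis. Between members r ran from -0.23 to 0.481, the highest being AVPR1A with OXTR DN20583.

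The genes that make, store and release such peptides were examined as listed groups. Of 17 tested genes of peptide processing and dense-core granules, 4 fell at night over both treatments and none rose, with a list median of -0.21 on the log2 scale beside 0.01 over all genes. Over all tested genes 2.11% fell and 2.23% rose in that comparison, and 1% fell and 1.07% rose at night in controls. These were SCG3, a granule sorting protein, and 3 genes named SCG2, the precursor of secretoneurin. SCG3 was at 204 ± 21.2 CPM (SD, n = 3) in control day and 205 ± 28.8 (SD, n = 3) in ALAN day, against 150 ± 11.9 (SD, n = 4) in control night and 149 ± 7.31 (SD, n = 4) in ALAN night (log2 difference -0.46, SE 0.08, adjusted p = 0.00382 in edgeR's test). SCG2 DN7515 fell by 0.41 (adjusted p = 0.00805), SCG2 DN8114 fell by 0.71 (adjusted p = 0.0119) and SCG2 DN31922 fell by 0.72 (adjusted p = 0.0241). In controls alone SCG2 DN8114 was 147.5 ± 29.8 CPM by day (SD, n = 3) and 63.5 ± 13.9 at night (SD, n = 4), a log2 difference of -1.22 (adjusted p = 0.00595), and SCG2 DN31922 fell by 0.99 (adjusted p = 0.0461). Under ALAN SCG2 DN8114 was at 111 ± 18.4 CPM by day and 96.5 ± 19.4 at night, and the interaction did not pass adjustment (log2 difference 1.02, unadjusted p = 0.00363, adjusted p = 0.596 in edgeR's test). The calls of SCG2 DN31922 were lost in 7 of 20 alternative settings over both treatments, 6 of them leaving out 1 library, and in 13 of 21 in controls, 12 of them leaving out 1 library; those of SCG3, SCG2 DN7515 and SCG2 DN8114 were lost in 0. Reads of SCG2 copies may be divided between the 3 genes, and none of the 17 passed the test for light.

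Of 8 tested peptide precursors of preoptic and hypothalamic neurons, 2 fell at night over both treatments, beside 2.11% of all tested genes. The log2 differences of the list ran from -1.11 to -0.03 with a median of -0.39, and the largest fall did not pass. NTS was at 56.7 ± 7.43 CPM in control day and 55.8 ± 9.75 in ALAN day (SD, n = 3 each), against 35.9 ± 8.38 and 34.9 ± 5.42 in control and ALAN night (SD, n = 4 each; log2 difference -0.67, SE 0.14, adjusted p = 0.0132 in edgeR's test). PDYN fell by 0.51 (adjusted p = 0.0492), a call lost in 16 of 20 alternative settings, 12 of them leaving out 1 library. The NTS call was lost in 0 of 20. In controls alone CRH was the 1 of 8 that fell, beside 1% of all tested genes. It went from 56.3 ± 13.1 to 33.4 ± 5.08 CPM (log2 difference -0.75, adjusted p = 0.0353), a call lost in 10 of 21 settings, 6 of them leaving out 1 library. Under ALAN CRH was at 46.7 ± 6.11 CPM by day and 42.95 ± 4.90 at night (log2 difference -0.12, adjusted p = 0.87 in edgeR's test). CRH did not pass over both treatments (-0.44, adjusted p = 0.0549). Its interaction did not pass adjustment either (0.63, unadjusted p = 0.0197, adjusted p = 0.735 in edgeR's test). For night against day over both treatments, AVP had a log2 difference of -0.66 with an SE of 0.38, beside -0.67 with an SE of 0.14 for NTS. Unlike NTS, AVP did not pass (adjusted p = 0.407 in edgeR's test). Its difference ran from -0.82 to -0.40 without 1 library, while that of NTS ran from -0.73 to -0.57 over its 20 alternative settings. None of 6 tested genes of preoptic specification passed in any comparison, and no gene of the count table bore any of the other receptor names searched for.

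Of 10 tested genes of peptide breakdown and hormone release, PREPL, a prolyl peptidase-like protein, rose at night over both treatments (log2 difference 0.84, adjusted p = 0.0195) and the others did not pass, beside 2.23% of all tested genes that rose. PREPL was at 5.12 ± 0.398 CPM in control day, 4.09 ± 0.300 in ALAN day, 9.78 ± 2.88 in control night and 6.93 ± 1.76 in ALAN night. Of 27 tested genes of the Gq pathway, ITPR2, an inositol trisphosphate receptor, rose at night over both treatments (log2 difference 0.93, adjusted p = 0.0212). That is 1 of 27, near the share of all tested genes, and the list median was -0.07. ITPR2 was at 5.58 ± 0.800 and 4.75 ± 2.24 CPM in the day groups and 9.44 ± 2.34 and 10.2 ± 1.02 in the night groups. The PREPL call was lost without both night libraries numbered 4, and the ITPR2 call was lost in that setting and without ALAN day library 1. None of the 25 tested genes of the Gs pathway passed in any comparison.

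A few cell type markers passed the test for time of day over both treatments, in which 4.34% of all tested genes passed: 2 of 3 glia markers, 1 of 10 neuron markers, 0 of 2 oligodendrocyte markers and 1 of 15 vessel and connective tissue markers. The glial gene GLUL, which encodes glutamine synthetase, rose at night over both treatments in both of its assembled genes (log2 differences 0.99 and 0.87, adjusted p = 0.0254 and 0.0133 in edgeR's test). Both are of the same assembly component, DN2249. The third glia marker, FABP7, at 2679 to 5046 CPM, had a log2 difference of 0.11 and did not pass. The summed glia markers were 3318 to 5755 CPM by day and 5507 to 6861 at night. In controls alone, the GLUL gene with the difference of 0.87 rose by 1.07 (adjusted p = 0.0486). Of the neuron markers, whose log2 differences ran from -1.04 to 1.11 with a median of -0.12, 1 GAD1 gene, which marks inhibitory neurons, fell by 0.28 over both treatments (adjusted p = 0.00966) and by 0.37 in controls (adjusted p = 0.0247), and the summed neuron markers were 1526 to 1779 CPM by day and 1214 to 1704 at night. RGS5, a marker of pericytes from a list of 15 vessel and connective tissue genes added after seeing the data, rose at night over both treatments (log2 difference 0.84, adjusted p = 0.0349) and in controls (1.37, adjusted p = 0.0321). The summed level of that list was 99.7 to 163 CPM by day and 123 to 177 at night, with 1 MYH11 gene at 0 in 5 libraries and 1 COL1A1 gene at 0 in 1. RGS5 means were 12.3 CPM in control day, 36.6 in ALAN day, 31.8 in control night and 45.3 in ALAN night. Under ALAN its night against day log2 difference was 0.31 and did not pass (adjusted p = 0.782 in edgeR's test). The controls-only calls were lost in 18 of 21 settings for GLUL, 9 for GAD1 and 7 for RGS5. Over both treatments RGS5 lost its call in 11 of 20 settings and the GLUL gene with the difference of 0.99 in 5, while the other GLUL gene and GAD1 lost theirs in 0. The part of these markers in the lower SCG2, SCG3 and NTS levels was not tested.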

How the data were processed

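Whole-brain RNA of 14 fish was sequenced with a non-stranded kit carrying unique molecular identifiers of 9 bases and paired reads of 150 bases, per the labels' protocols. The 3 assembly libraries were not analysed here. The authors deposited expected counts (estimated read numbers, 95.98% of them not whole) for 21805 genes of a de novo assembly. The submitters' processing notes name Trimmomatic 0.39, Bowtie2 and RSEM without roles, and do not say whether identifiers were collapsed. The deposited annotation, per its header from eggNOG-mapper 2.1.7, gives gene names and bit scores. Reads of near-identical copies may be divided between genes. No genome or sequence was used, so no position or sequence is given.

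Counts were rounded, scaled by TMM (factors 0.87 to 1.08), filtered by group with a minimum count of 10 and total of 15 (1023 genes removed) and tested with edgeR 4.0.16 in R 4.3.3. The quasi-likelihood fit had 1 mean for each of 4 groups, 10 residual degrees of freedom and 7 contrasts, with Benjamini-Hochberg adjustment over 20782 genes at 0.05. Intervals are 95% intervals from that fit. CPM used the scaled totals, and log2 CPM a prior count of 2. The members, gene lists and tests were chosen with earlier results of these data known. The relations of AVP used 100000 permutations, 2-sided. The planned relation of AVP with OXT could not be computed for want of an OXT gene. Every member was named, with every listed gene under the threshold and the 3 genes most like each member, of which 1 is not reported here. Alternatives were other size factors, no filter, DESeq2 1.42.0, only the groups compared, a replicate block, pituitary markers as a covariate, genes of 1 name summed, and leaving out each library. The fit was tested on simulated data.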

Additional observations from a re-analysis of the deposited data

How the results depend on the processing

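No member was called under any alternative (151 counts of 0), DESeq2 included. Of 741 alternative log2 differences of the members, 682 kept their direction and 59, of differences that had not passed the test, changed sign. Replicate numbers did not pair the libraries: deviations of same-numbered libraries correlated at -0.167 to 0.103, and 3 of 24 correlated best with their own number. With the replicate as a block, the night against day difference of OXTR DN20583 under ALAN was 0.32, and its ALAN difference over both times was -0.14. In that block fit AVPR2 was -0.098 for ALAN by day and -0.038 for ALAN over both times, AVP 0.38 for the interaction, and AVPR1A 0.051 for time of day over both treatments. In it AVP was -0.97 for night against day in controls and -0.79 over both treatments (edgeR unadjusted p = 0.0494, adjusted p = 0.32). With the pituitary covariate AVPR2 was -0.17 for ALAN by day and -0.072 over both times, and OXTR DN15636 was 0.023 for ALAN over both times. In the fit of only the groups compared AVPR2 was -0.00093 for ALAN by day. Without both night libraries numbered 4, an alternative chosen after seeing the data, OXTR DN20583 was 0.13 for night against day under ALAN, and AVPR2 was -0.13 for ALAN at night, -0.14 for the interaction and -0.061 for ALAN over both times. Leaving out 1 library gave AVP -0.59 to 0.017 for ALAN at night, -0.58 to 0.23 by day and -0.53 to 0.28 for the interaction. It gave AVPR1A -0.58 to 0.24 for night against day in controls, -0.12 to 0.70 under ALAN, -0.20 to 0.24 over both treatments and -0.048 to 0.91 for the interaction. It gave AVPR2 -0.20 to 0.11 for ALAN at night, -0.087 to 0.19 by day, -0.099 to 0.10 over both times and -0.19 to 0.11 for the interaction. It gave OXTR DN15636 -0.023 to 0.087 for time of day over both treatments and -0.050 to 0.060 for ALAN over both times. It gave OXTR DN20583 -0.60 to 0.90 for night against day under ALAN, -0.42 to 1.07 for ALAN by day, -0.38 to 0.37 over both times and -1.41 to 0.083 for the interaction. The cause of these changes was not tested.

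Counts of all genes called moved more. For night against day in controls, 430 genes were called, 1108 by DESeq2, 240 with the replicate block, 191 with only those groups, 274 without both night libraries numbered 4 and 216 to 552 without 1 library. Under ALAN the 214 became 657 by DESeq2, 128 with the pituitary covariate, 126 with only those groups and 131 to 214 without 1 library. Over both treatments the 902 became 1793 by DESeq2 and 623 to 1079 without 1 library. For ALAN at night the 6 became 41 by DESeq2, 3 with genes of 1 name summed, 2 without both night libraries numbered 4 and 1 to 8 without 1 library. By day the 1 became 138 by DESeq2, 0 with the block or the pituitary covariate, 2 with only those groups or summed names, and 0 to 6 without 1 library. Over both times the 1 became 154 by DESeq2, 3 with summed names, 0 with the block, the covariate or without both night libraries numbered 4, and 0 to 11 without 1 library. The interaction had 0 in edgeR and 56 by DESeq2. The fit of only the groups compared was not run where a comparison used all 4 groups. Counting depth limits AVPR2 and OXTR DN20583 most, with as few as 12.6 and 1.81 expected counts in a library.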

Other observations

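Beyond the named members, the annotation describes 3 counted genes without a gene name as V2-type receptors or similar, a set chosen after their descriptions were seen. In the assembly component DN15921, which holds 1 of them, another gene was named AVPR1A (bit score 228) and had no row in the count table. DN15921, with a bit score of 335, stood at 1.02 ± 0.397 CPM in control day (SD, n = 3), 1.86 ± 0.317 in ALAN day (SD, n = 3), 1.60 ± 0.814 in control night (SD, n = 4) and 1.63 ± 0.193 in ALAN night (SD, n = 4). Its ALAN day values, 1.97, 2.11 and 1.51 CPM, all lay above its control day values of 1.43, 0.978 and 0.643 CPM, as was so for 10.7% of all tested genes in one direction or the other. The log2 difference was 0.87 with unadjusted p = 0.103 and adjusted p = 0.804 in edgeR's test. The others, DN164820 (bit score 579) and DN29264 (226), were at or below 0.883 CPM in every library, each was at 0 in 1 control night library, and neither passed in any comparison. With the OXTR genes summed, night against day in controls gave a log2 difference of 0.29 (unadjusted p = 0.0882, adjusted p = 0.384 in edgeR's test) and the interaction -0.41 (unadjusted p = 0.0882, adjusted p = 0.769).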
